A study of Mus musculus with 12 samples.

Results

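Malat1, Neat1, Meg3, Miat, Snhg11, Rian, Gas5 and Bc1 are 8 mouse genes known for their noncoding RNAs, although GENCODE M21 types Snhg11 as protein coding, and were followed through 12 RNA-seq libraries of retina. They were chosen by exact match to the gene names of the deposited table, 8 of 55487 genes, together with their 128 of 142699 transcripts. The set was put together as the abundant long noncoding RNAs of this table plus Bc1, with earlier results of the same libraries known, so that the levels below are a description and carry no test. The retinas came from WT mice (C57BL/6J), from JNK3 KO mice (Jnk3-/-, which lack the neuronal JNK kinase encoded by Mapk10) and from mice infected with AAV2.7m8 that carries pU6-shPax6-GFP (shPax6), at 2 months of age by the study's methods. WT, JNK3 KO and shPax6 are called genotypes below, although shPax6 is a vector (2 μL) given to WT mice. WT and JNK3 KO eyes are listed without AAV. Each genotype received 1 μL of PBS or 1 μL of 40 mM NMDA (40 nmol) into the vitreous, and each of the 6 resulting groups holds 2 libraries. NMDA overactivates glutamate receptors and injures retinal ganglion cells (RGCs), and PAX6 is a developmental transcription factor that stays on in adult RGCs, amacrine and horizontal cells.

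Some features of the groups limit what they model. RNA of more than 3 retinas was pooled for a library, the shRNA is driven by the U6 promoter and is not limited to 1 cell type, and no library of retinas given the shScramble vector is among the 12, so infection and knockdown are not separated. Whether the 2 libraries of a group came from separate animals is not stated, and p-values then measure only the spread between these libraries. The targeted genes were checked first. Levels of Pax6 under PBS were 173.48 and 177.3 FPKM in WT against 94.56 and 92.84 FPKM in shPax6 retinas, a log2 difference of −0.90 (SE 0.069, limma adjusted p = 6.04e-05). Those of Mapk10 were 42.79 and 50.72 FPKM in WT against 9.47 and 8.75 FPKM in JNK3 KO retinas, which is −2.34 in log2 (SE 0.361, limma adjusted p = 0.0215). In WT NMDA libraries both genes were low as well, Pax6 at 55.42 and 53.81 FPKM and Mapk10 at 8.98 and 6 FPKM.

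The 8 RNAs belong to different classes. Malat1 sits in nuclear speckles, which store splicing factors, and Neat1 is the scaffold of paraspeckles, nuclear bodies that form on its long isoform. Neither of these long RNAs ends in an ordinary poly(A) tail: a cleavage that releases a tRNA-like RNA leaves an A-rich end, which folds back on U-rich stretches into a triple helix. Miat (also called Gomafu) stays in the nucleus of neurons. Meg3 and Rian are expressed from the maternal copy of the imprinted Dlk1-Dio3 locus, and Rian carries many snoRNAs in its introns. Snhg11 and Gas5 are snoRNA hosts as well. The spliced Gas5 RNA starts with a pyrimidine tract like the mRNAs of ribosomal proteins and is removed by nonsense-mediated decay while it is translated. Bc1 is a short transcript of RNA polymerase III, derived from a tRNA gene, which travels into dendrites and holds back the start of translation there.

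Sequences of 5 stretches are shown because library preparation was primed with oligo-dT and because promoters of 2 members share a motif. Bc1 lies on GRCm38 chr7:144914470-144914637, plus strand, as a single exon of 168 bases, and 41.7% of these are A. Runs of 6 or more A are in capitals, the longest of them 23 bases.
Bc1-201: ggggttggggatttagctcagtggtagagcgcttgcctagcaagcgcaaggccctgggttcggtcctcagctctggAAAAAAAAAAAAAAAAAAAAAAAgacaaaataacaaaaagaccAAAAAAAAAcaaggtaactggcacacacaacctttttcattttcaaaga
The 76 bases before the first run are tRNA-like and are repeated elsewhere in the transcriptome. A search of GENCODE M21 found a stretch at least 85% identical over at least 80% of them in 55 transcripts of 51 other genes, 18 transcripts of 17 genes among them at 95% identity or more, so reads may be shared and the Bc1 level is uncertain to that extent. The A-rich end and the U-rich stretches that pair with it are in capitals for Malat1, from chr19:5795982-5796091 on the minus strand, which stops 292 bases before the annotated end of Malat1-201.
Malat1-201: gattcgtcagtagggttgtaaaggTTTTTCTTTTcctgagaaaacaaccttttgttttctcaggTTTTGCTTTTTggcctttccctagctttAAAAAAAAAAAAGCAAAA
The last 110 bases of the long Neat1 isoform, chr19:5824708-5824817 on the minus strand, are marked in part. Of its U-rich stretches only TTTTGCTTTT is in capitals, and tttctttt before it was left in lower case.
Neat1-201: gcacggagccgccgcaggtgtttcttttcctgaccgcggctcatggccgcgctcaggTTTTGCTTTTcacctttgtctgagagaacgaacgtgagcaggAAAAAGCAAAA
Which of these A runs was primed was not measured.

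RefSeq promoter windows of 300 bases, 250 before and 50 after the start, were found on GRCm38.p6 for 7 of the 8 genes in 9 entries. A search of both strands for TGACGTCA, the full site of the CREB and ATF factors, found it in the Gas5 entry at chr1:161034916-161035215 and in the Meg3 entry at chr12:109540746-109541045, both on the plus strand, 46 and 57 bases before the start. The site is in capitals below.
Gas5: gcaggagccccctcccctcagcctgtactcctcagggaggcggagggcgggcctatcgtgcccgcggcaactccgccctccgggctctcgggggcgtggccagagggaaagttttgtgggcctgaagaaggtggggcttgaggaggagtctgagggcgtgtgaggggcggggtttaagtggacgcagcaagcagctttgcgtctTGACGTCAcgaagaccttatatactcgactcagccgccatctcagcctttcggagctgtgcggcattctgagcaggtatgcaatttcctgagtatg
Meg3: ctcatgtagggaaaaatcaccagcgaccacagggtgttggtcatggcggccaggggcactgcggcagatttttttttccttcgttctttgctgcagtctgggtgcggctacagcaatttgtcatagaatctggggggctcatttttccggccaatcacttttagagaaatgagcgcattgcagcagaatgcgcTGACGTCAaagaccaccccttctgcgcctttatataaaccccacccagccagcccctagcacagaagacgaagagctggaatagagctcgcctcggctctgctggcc
Among all 32851 promoter entries 588 (1.79%) held TGACGTCA. TGANTCA, a looser form of the AP-1 motif that takes any base in the middle, was found in 2565 entries (7.81%) and in 0 of the 9 entries of these genes. A match of letters is not a bound site.

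In WT PBS libraries the highest of the 8 was Bc1 at 1157.56 and 1229.16 FPKM. Gas5 followed at 244.44 and 261.25 FPKM, above Snhg11 at 210.22 and 211.18 FPKM and Meg3 at 208.21 and 211.12 FPKM, and these last 2 overlapped. Malat1 at 170.71 and 143.81 FPKM and Rian at 101.39 and 104.72 FPKM came next, and Neat1 at 16.60 and 18.00 FPKM and Miat at 10.19 and 8.87 FPKM were far below. FPKM are per length, so levels of different genes can be set side by side, but the estimate for an RNA as short as a sequenced fragment, such as Bc1, depends strongly on the effective length that the counting assumes. The values of all 8 genes in the 12 libraries are plotted by group.

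**Figure D1:**
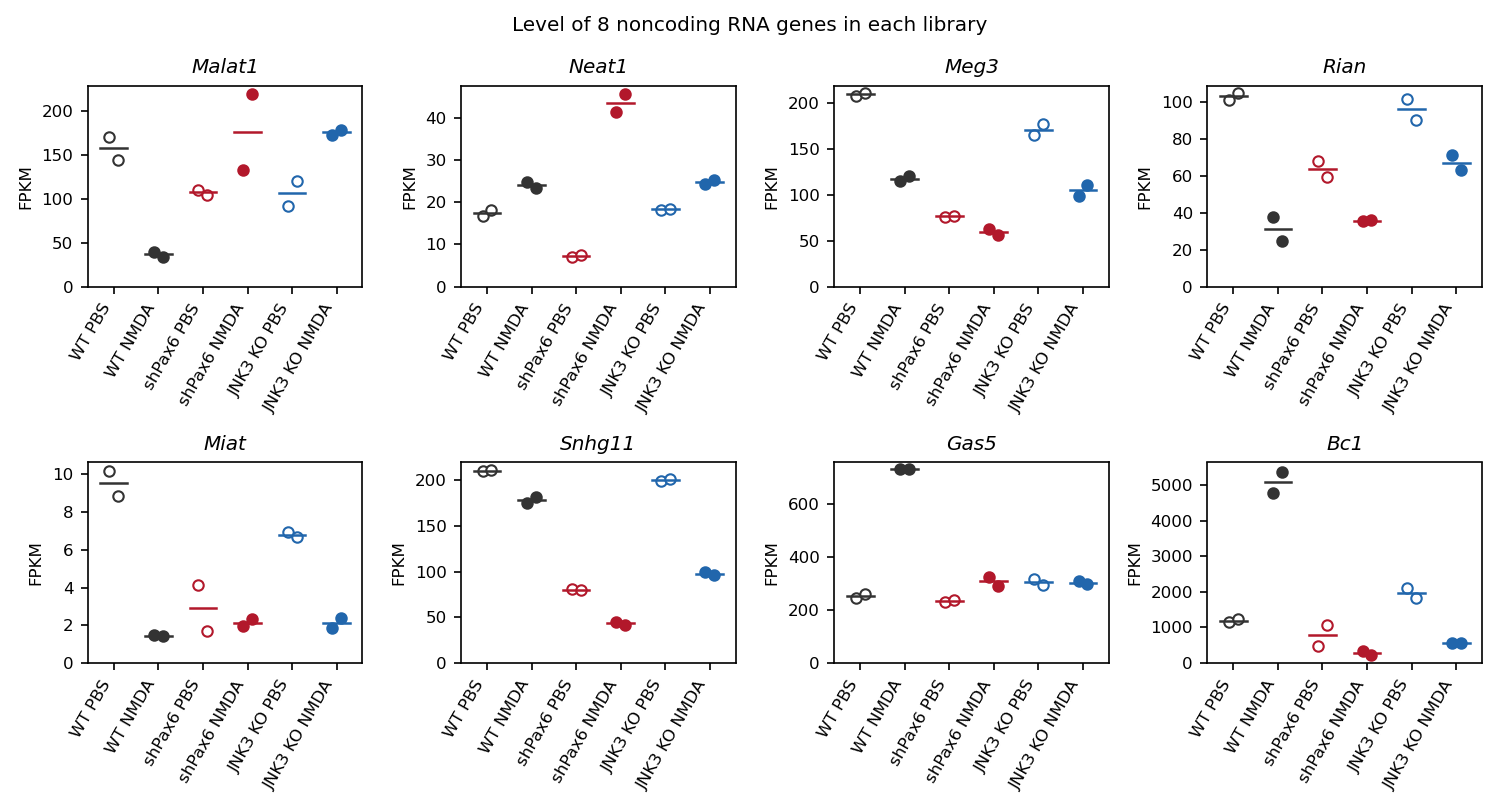
FPKM (vertical axes, linear from 0) of the 8 genes, 1 panel a gene, with 1 point for each of the 2 libraries of the 6 groups (open for PBS, filled for NMDA) and a bar at their mean. Bc1 spans the widest range, with group means from 284 FPKM in shPax6 NMDA to 5079 FPKM in WT NMDA.

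The label of abundance held for only part of the set. Ranked among 55487 genes in each library, with 1 as the highest, Bc1 stood between 9 and 332 and Gas5 between 178 and 312. Neat1 stood between 2273 and 9081 and Miat between 7900 and 13067, so neither was an abundant transcript in these retinas. The highest group mean of Bc1 was 17.9 times its lowest, against 6.55 times for Miat, 5.95 for Neat1, 4.84 for Snhg11, 4.81 for Malat1, 3.52 for Meg3, 3.30 for Rian and 3.12 for Gas5. Bc1 and Gas5 were highest in WT NMDA, Neat1 in shPax6 NMDA, and Snhg11, Meg3 and Miat in WT PBS. Rian was highest in WT PBS too, at a mean that its JNK3 KO PBS libraries (101.76 and 90.27 FPKM) overlapped. Malat1 had its highest means in shPax6 NMDA and JNK3 KO NMDA, whose libraries overlapped each other. Both WT PBS libraries of Malat1 (170.71 and 143.81 FPKM) lay between those of shPax6 NMDA (132.42 and 219.01 FPKM).

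Rod, cone, bipolar and Müller glia markers were all above 1 FPKM in the 12 libraries, as a retina should show. The WT NMDA libraries stood apart. Their FPKM summed to 805627 and 820180 over all genes, against 541210 to 576922 in the other 10, and their changes followed the length of the gene. The median log2 fold change after NMDA in WT retinas was 1.13 for 2557 genes of 300 to 1000 bases, 0.52 for 4525 genes of 1000 to 2000, −0.32 for 5976 of 2000 to 4000, −1.10 for 2695 of 4000 to 8000 and −1.77 for 307 of 8000 bases or more. In shPax6 retinas the same medians ran from 0.24 to −0.18 and in JNK3 KO retinas from −0.15 to 0.32. The 390 genes under 300 bases had a median of 0 in WT, shPax6 and JNK3 KO retinas alike. The part of this length trend in the results was not tested beyond the corrected values given beside them, and rescaling each library to TPM moved the median of all genes in WT retinas from −0.09 to −0.66. On TPM the calls after NMDA in WT retinas split into 2247 higher and 8270 lower genes, against 4286 and 5569 on FPKM.

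For the other contrasts, too, the split of calls depended on the scaling. After NMDA in shPax6 retinas 3151 genes were higher and 1816 lower, which became 2158 and 2742 under quantile normalization. The split in JNK3 KO retinas was 713 higher and 1005 lower, and 983 and 803 when libraries were scaled without the 8 genes and the mitochondrial genes. Under PBS, shPax6 against WT gave 883 higher and 1841 lower genes, and 1134 and 1535 under quantile normalization, while JNK3 KO against WT gave 182 and 67, and 43 and 91 under quantile normalization. The response of WT minus that of shPax6 retinas split into 3007 higher and 5172 lower genes, and 1516 and 7771 on TPM. For the response of WT minus that of JNK3 KO retinas the split was 3875 and 4597, and 2105 and 6973 on TPM.

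Markers of other cells differed between the groups by wide margins. The sum over 8 RGC markers, of which Isl2 was at 0 in a library, was 535.61 and 555.42 FPKM in WT PBS and 298.25 and 318.41 FPKM in WT NMDA libraries. It was 550.85 and 509.73 FPKM in JNK3 KO PBS, 124.35 and 127.04 FPKM in JNK3 KO NMDA, 156.38 and 157.91 FPKM in shPax6 PBS and 46.11 and 39.26 FPKM in shPax6 NMDA libraries. RGC markers were thus low in shPax6 retinas before any NMDA. Neutrophil markers (5 genes, with Mmp8, Ly6g and Retnlg at 0 in some libraries) summed to 188.34 and 211.07 FPKM in WT PBS and to 1925.13 and 1968.58 FPKM in WT NMDA, against 3.56 to 143.18 FPKM in the other 8 libraries. Microglia markers (4 of 4 found) summed to 195.37 and 188.35 FPKM in shPax6 NMDA and 77.92 and 66.64 FPKM in shPax6 PBS, against 19.32 to 30.21 FPKM elsewhere. In bulk retina, fewer cells of a type and less RNA per cell cannot be told apart.

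After NMDA in WT retinas all 8 genes passed the test, 3 higher (Gas5, Neat1 and Bc1) and 5 lower (Meg3, Snhg11, Malat1, Rian and Miat). Of the 16471 genes tested, 26.0% were called higher and 33.8% lower in this comparison, so that a call on its own says little here. In shPax6 retinas 3 were higher, 4 lower and Miat did not pass, beside 19.1% and 11.0% of all genes. In JNK3 KO retinas Neat1 was higher, 4 were lower and 3 did not pass, beside 4.33% and 6.10%. For the 8 genes together the median was −0.54 in WT, −0.33 in shPax6 and −0.61 in JNK3 KO retinas, and that of all genes −0.09, 0.10 and −0.01. The 3 responses of each gene are plotted with their errors.

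**Figure D2:**
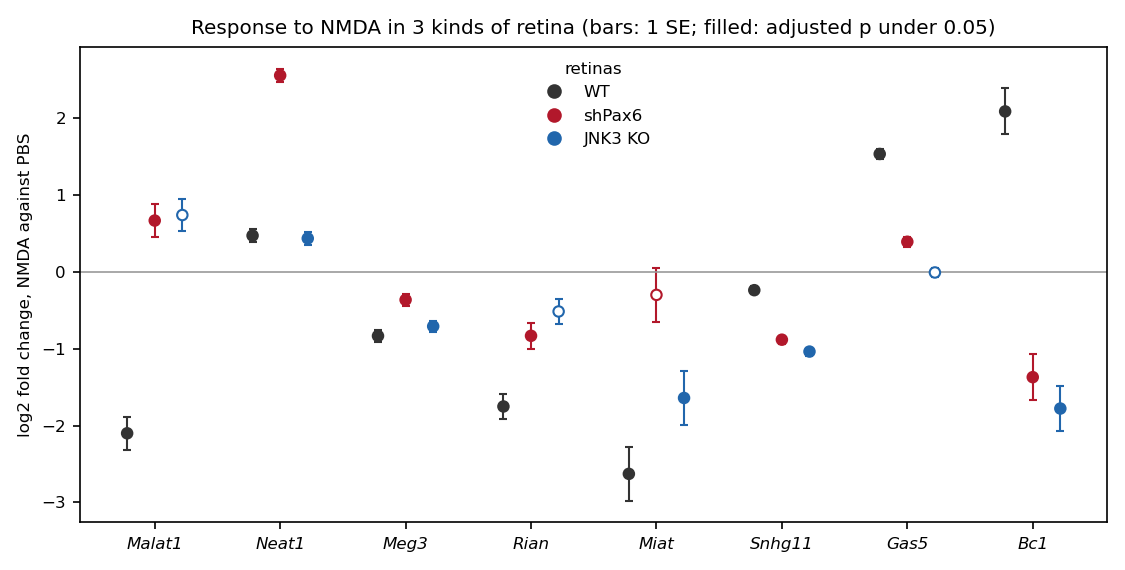
The log2 fold change of NMDA against PBS (vertical axis, log2(FPKM + 0.1) scale) for the 8 genes in WT, shPax6 and JNK3 KO retinas, with bars of 1 SE and filled points for an adjusted p under 0.05. Gas5 lies at 1.53 in WT and 0.39 in shPax6 retinas, Neat1 at 2.56 in shPax6 retinas, and Bc1 at 2.09 in WT, −1.37 in shPax6 and −1.78 in JNK3 KO retinas. On TPM the WT value of Neat1 is −0.10.

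Malat1 lost most of its level in WT retinas after NMDA. It fell from 170.71 and 143.81 FPKM in WT PBS to 39.13 and 34.00 FPKM in WT NMDA libraries, and the groups did not overlap. This was a log2 fold change of −2.10 (SE 0.213, limma adjusted p = 2.65e-05), −2.67 on TPM and −0.89 after the length correction, and it passed the test in each of these. In shPax6 retinas Malat1 was at 110.16 and 104.29 FPKM under PBS and at 132.42 and 219.01 FPKM under NMDA, higher by 0.67 in log2 (limma adjusted p = 0.0426). This call passed in only 4 of 14 alternatives. It was lost without replicate 2 of shPax6 NMDA, where the value was 0.30, while without replicate 1 it was 1.03. The call was lost as well without either shPax6 PBS library and on TPM (limma adjusted p = 0.0639). JNK3 KO libraries held 91.96 and 120.15 FPKM under PBS and 172.48 and 178.71 FPKM under NMDA. They did not overlap, but the log2 fold change of 0.74 did not pass (limma adjusted p = 0.0608), although it did under quantile normalization (0.0347).

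Neat1 had its largest response in shPax6 retinas. Its level there was 7.02 and 7.56 FPKM under PBS, below all other libraries, and 41.20 and 45.53 FPKM under NMDA, above all others. In log2 the rise was 2.56 (SE 0.089, limma adjusted p = 3.23e-07) and stayed between 2.46 and 2.51 on TPM, after quantile normalization and after the length correction. The microglia markers given above rose as well in these libraries, and their part in the Neat1 values was not tested. In WT retinas Neat1 went from 16.60 and 18.00 FPKM to 24.69 and 23.37 FPKM, or by 0.47 in log2 (limma adjusted p = 0.00134) that turned to −0.10 on TPM (adjusted p = 0.370) and was 1.01 after the length correction. JNK3 KO retinas gave almost the same levels, 18.12 and 18.43 FPKM under PBS and 24.27 and 25.24 FPKM under NMDA. The log2 fold change of 0.44 (limma adjusted p = 0.0161) was lost when any of the 4 JNK3 KO libraries was left out (adjusted p 0.0707 to 0.112).

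Miat, the lowest of the 8, fell in WT retinas from 10.19 and 8.87 FPKM to 1.48 and 1.43 FPKM. Its log2 fold change was −2.63 (SE 0.351, limma adjusted p = 0.000156), and −1.34 after the length correction (adjusted p = 0.0126). In JNK3 KO retinas it went from 6.92 and 6.67 FPKM to 1.88 and 2.37 FPKM, again without overlap. That log2 fold change was −1.64 (limma adjusted p = 0.0195), and without any one of the JNK3 KO libraries it no longer passed (0.0951 to 0.142). The shPax6 PBS libraries were far apart at 4.12 and 1.68 FPKM and those under NMDA lay between them at 1.95 and 2.32 FPKM. The value of −0.30 (limma adjusted p = 0.564) became 0.32 without replicate 1 of shPax6 PBS and −0.92 without replicate 2, where it passed (0.0197). RGC and amacrine markers fell along with Miat in WT and JNK3 KO retinas, the amacrine sum (5 genes, none at 0) from 201.69 and 197.58 to 83.40 and 78.66 FPKM in WT and from 174.86 and 183.48 to 147.00 and 150.03 FPKM in JNK3 KO libraries. In shPax6 retinas, where Miat did not pass, the amacrine sum went from 168.71 and 157.04 to 73.59 and 72.72 FPKM, and the RGC sum given above was lower as well. Their part in the Miat values was not tested.

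Meg3 fell in all 3 genotypes. Its level went from 208.21 and 211.12 to 115.06 and 120.26 FPKM in WT, from 164.98 and 177.49 to 99.16 and 110.55 FPKM in JNK3 KO and from 75.77 and 77.45 to 63.03 and 56.21 FPKM in shPax6 libraries. No pair of groups overlapped. The log2 fold changes were −0.83 (SE 0.074, limma adjusted p = 1.13e-05), −0.71 (0.000660) and −0.36 (0.00577) in this order. In WT retinas the sign turned with the length correction, to 0.15 (adjusted p = 0.133), and the annotated transcripts that carried Meg3 averaged 4638 bases, weighted by FPKM. In JNK3 KO retinas, whose length trend ran the other way, the corrected value was −0.82. The fall in shPax6 retinas was lost when those groups were compared alone (adjusted p = 0.101).

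Rian, from the same imprinted locus, fell from 101.39 and 104.72 to 37.59 and 24.82 FPKM in WT retinas. In log2 the fall was −1.75 (SE 0.167, limma adjusted p = 1.77e-05). In shPax6 retinas it went from 68.25 and 59.29 to 35.48 and 35.92 FPKM, which is −0.83 in log2 (limma adjusted p = 0.00540). The JNK3 KO libraries did not overlap either, at 101.76 and 90.27 FPKM under PBS and 71.26 and 63.07 FPKM under NMDA, but the value of −0.52 did not pass (limma adjusted p = 0.0900). No length correction was possible for Rian and Snhg11, because transcripts with a known length made up only 19.7% and 26.6% of their FPKM.

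Snhg11 stood high in WT PBS (210.22 and 211.18 FPKM) and JNK3 KO PBS libraries (198.99 and 201.78 FPKM) and low in shPax6 PBS libraries (80.90 and 79.65 FPKM). After NMDA it was at 175.08 and 182.24 FPKM in WT, 99.38 and 95.91 FPKM in JNK3 KO and 45.18 and 41.90 FPKM in shPax6 retinas. Every NMDA group was below its PBS group without overlap. The log2 fold change was −0.24 in WT (SE 0.052, limma adjusted p = 0.00321), −1.04 in JNK3 KO (1.32e-05) and −0.88 in shPax6 retinas (4.84e-06). The small WT value was −0.81 on TPM and −0.99 after quantile normalization. The RGC marker sums of the same groups are given above, and their part in the Snhg11 values was not tested.

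Gas5 rose from 244.44 and 261.25 FPKM in WT PBS to 732.46 and 731.38 FPKM in WT NMDA libraries, while every other library held between 230.31 and 325.44 FPKM. In log2 this was 1.53 (SE 0.063, limma adjusted p = 1.21e-07). It was 0.96 on TPM, 0.45 after quantile normalization and 0.41 after the length correction, and passed in each (adjusted p of 0.00384 in the last). The transcripts of Gas5 averaged 570 bases, in the range of lengths whose median rose by 1.13 in WT retinas. In shPax6 retinas Gas5 went from 230.31 and 238.82 to 325.44 and 290.98 FPKM, or by 0.39 in log2 (limma adjusted p = 0.00160) that was 0.10 after the length correction (0.442). JNK3 KO libraries overlapped, at 315.89 and 296.00 FPKM under PBS and 310.47 and 297.94 FPKM under NMDA, with a value of −0.01 (limma adjusted p = 0.978) that was slightly positive under each rescaling.

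Bc1 rose from 1157.56 and 1229.16 FPKM in WT PBS to 4777.96 and 5379.39 FPKM in WT NMDA libraries. The log2 fold change was 2.09 (SE 0.299, limma adjusted p = 0.000243) against 1.51 on TPM and 1.95 after the length correction. That correction is loosely set at the length of Bc1, since genes under 300 bases had a median of 0 and listed short RNAs were detected unevenly. In JNK3 KO retinas the change had the other sign. The level fell from 2097.77 and 1817.19 to 568.47 and 570.25 FPKM, which is −1.78 in log2 (limma adjusted p = 0.00699), which passed in all settings but the omission of replicate 1 of JNK3 KO PBS or either JNK3 KO NMDA library (0.0660 to 0.0710). In shPax6 retinas it went from 491.40 and 1067.89 to 333.17 and 235.82 FPKM. This log2 fold change of −1.37 passed (limma adjusted p = 0.00795), but not without replicate 2 of shPax6 NMDA (0.0720), nor when the shPax6 groups were compared alone (0.195). With a library left out it ran from −1.93 to −0.81, the latter without replicate 2 of shPax6 PBS.

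**Figure D3:**
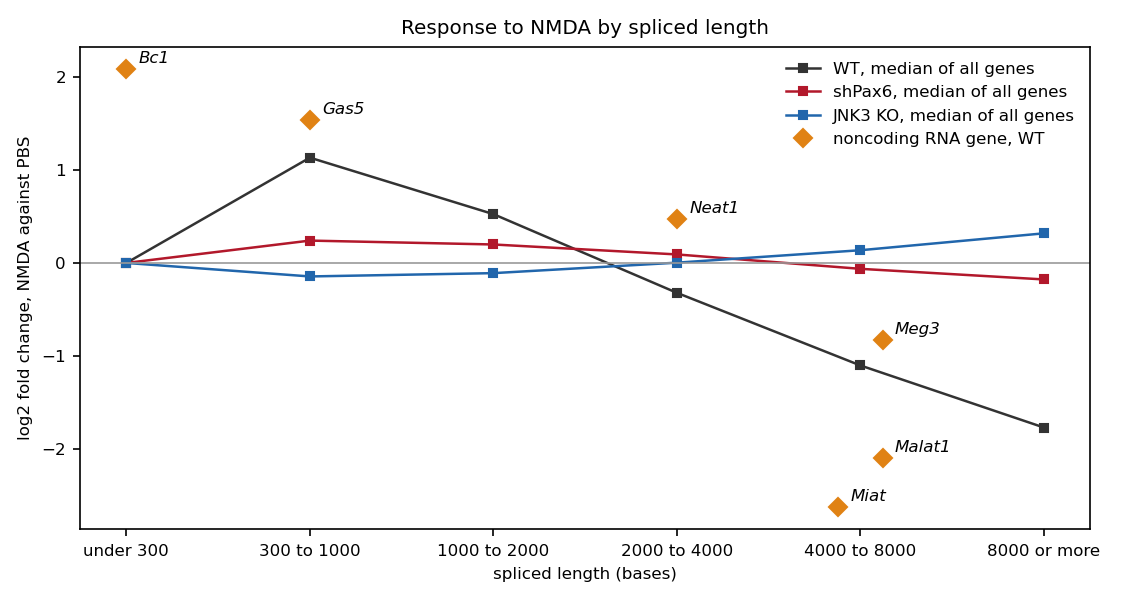
The log2 fold change after NMDA (vertical axis) by class of spliced length in bases (horizontal axis), with lines for the median of all genes in each class in WT, shPax6 and JNK3 KO retinas and diamonds for the WT value of the 6 noncoding RNA genes of known length. In WT retinas the medians go from 1.13 at 300 to 1000 bases to −1.77 at 8000 or more. Gas5, Meg3, Malat1 and Miat follow that order with values of 1.53, −0.83, −2.10 and −2.63. Neat1 lies at 0.47 (−0.10 on TPM) and Bc1, at 168 bases, at 2.09. The 390 genes under 300 bases have a median of 0, with 23 called higher and 20 lower. Listed short RNAs were often at 0 in a library, and whether Bc1 follows the length trend was not tested.

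Under PBS, 5 of the 8 genes were lower in shPax6 than in WT retinas, 0 were higher and 3 did not pass, beside 5.36% of all genes higher and 11.2% lower. Snhg11 (log2 difference −1.39, limma adjusted p = 1.21e-06), Meg3 (−1.45, 8.04e-06) and Neat1 (−1.24, 4.59e-05) differed without overlap of the libraries and under every alternative that was run. Miat (−1.81, limma adjusted p = 0.00830) did not pass with these groups compared alone (0.151) or without either WT PBS library (0.0735 and 0.0533), and with a library left out it ran from −2.43 to −1.19. Rian (−0.69, limma adjusted p = 0.0221) did not pass when any of the 4 libraries was left out (0.0576 to 0.128). The value of −0.72 for Bc1 did not pass (limma adjusted p = 0.144), and it was −0.16 without replicate 1 and −1.28 without replicate 2 of shPax6 PBS, where it passed (0.00494). The median of the 8 was −0.98 and that of all genes −0.06.

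Between JNK3 KO and WT retinas under PBS the test called 0 of the 8 genes, beside 1.10% of all genes higher and 0.407% lower. By limma, 4 of them, Meg3, Gas5, Malat1 and Bc1, had an unadjusted p under 0.05. The log2 differences ran from −0.58 for Malat1 (limma adjusted p = 0.240) to 0.71 for Bc1 (0.302), with a median of −0.09, and that of all genes was 0. Bc1 was higher in both JNK3 KO PBS libraries than in both WT PBS libraries.

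The responses themselves were compared next. The response of WT minus that of shPax6 retinas passed for all 8 genes, 3 higher and 5 lower, beside 18.3% of all genes higher and 31.4% lower. The largest differences in log2 fold change were 3.46 for Bc1 (limma adjusted p = 0.000181), −2.77 for Malat1 (9.54e-05), −2.33 for Miat (0.00401) and −2.08 for Neat1 (4.19e-06). Miat passed in 17 of 18 alternatives but not after the length correction (limma adjusted p = 0.111), and over them it ran from −2.95 to −1.12. Gas5 differed by 1.14 (limma adjusted p = 1.52e-05), which was 0.32 after the length correction (0.0714), and Snhg11 by 0.64 (0.000121), which was 0.12 on TPM (0.193). Meg3 differed by −0.47 (limma adjusted p = 0.00513), which turned to 0.50 after the length correction and passed there too (0.00521). Rian differed by −0.92 (limma adjusted p = 0.0105). The median of the 8 differences was −0.69 and that of all genes −0.28.

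The response of WT minus that of JNK3 KO retinas passed for 5 genes, 3 higher and 2 lower, beside 23.5% and 27.9% of all genes. Bc1 differed by 3.87 (SE 0.422, limma adjusted p = 6.57e-05), Malat1 by −2.84 (5.56e-05), Gas5 by 1.54 (1.77e-06), Rian by −1.24 (0.00195) and Snhg11 by 0.80 (2.33e-05). Snhg11 turned to −0.04 under quantile normalization, and Gas5 was 0.26 after the length correction (0.127). Neat1 (0.04, limma adjusted p = 0.836), Meg3 (−0.13, 0.355) and Miat (−0.99, 0.129) did not pass, but all 3 did on TPM, at −0.55, −0.72 and −1.57. After the length correction the sign was the other one for Meg3, at 0.97 (limma adjusted p = 0.000164), and for Miat, at 0.50 (0.486). Over the alternatives Neat1 ran from −0.68 to 0.61. The median of the 8 was −0.04 and that of all genes −0.03. Both differences share the WT libraries, and their values are therefore not independent of each other.

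Of the 128 transcripts of the 8 genes, 6 were at 0 in all libraries and 70 were above 1 FPKM in a group and tested. After NMDA in WT retinas 6 were called higher and 24 lower, beside 11.7% and 23.5% of all 49940 transcripts tested. In shPax6 retinas 3 were higher and 10 lower, beside 4.71% and 3.63%, and in JNK3 KO retinas 0 and 8, beside 0.537% and 0.775%. When the shPax6 or the JNK3 KO groups were compared alone, 0 transcripts of either passed. Under PBS 0 were higher and 11 lower in shPax6 than in WT retinas, beside 0.937% and 1.79%, and 0 were called between JNK3 KO and WT retinas by limma (8 at an unadjusted p under 0.05), beside 0.112% and 0.0741%. Over the 70 the median was −1.28 in WT retinas and that of all transcripts −0.58.

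Snhg11-207, already the highest Snhg11 transcript in WT PBS, took a larger share of the gene in WT NMDA libraries. It held 37.6% and 39.0% of the gene's summed transcript FPKM in WT PBS and 89.2% and 91.3% in WT NMDA libraries, at 79.12 and 82.29 FPKM before and 156.15 and 166.42 FPKM after. Its log2 fold change was 1.00 (limma adjusted p = 0.000293), and 0.15 after quantile normalization (0.362). Snhg11-201, of 5864 bases, fell in the same libraries from 59.15 and 58.22 to 8.84 and 7.82 FPKM, by 2.80 on the log2 scale (limma adjusted p = 5.84e-07). All transcripts of 4000 to 8000 bases had a median of −1.24 in WT retinas, with 214 called higher and 3237 lower. The part of the length trend in the shares of Snhg11 transcripts was not tested. The transcript listed as Snhg11-206 had the same value as Snhg11-201 in 12 of 12 libraries, so the counting did not separate them. In JNK3 KO retinas Snhg11-207 had the opposite course, from 95.25 and 92.03 to 32.68 and 27.58 FPKM, and Snhg11-201 went from 47.53 and 50.41 to 30.58 and 30.62 FPKM. The levels of these 2 and of 4 Meg3 transcripts are plotted by library.

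**Figure D4:**
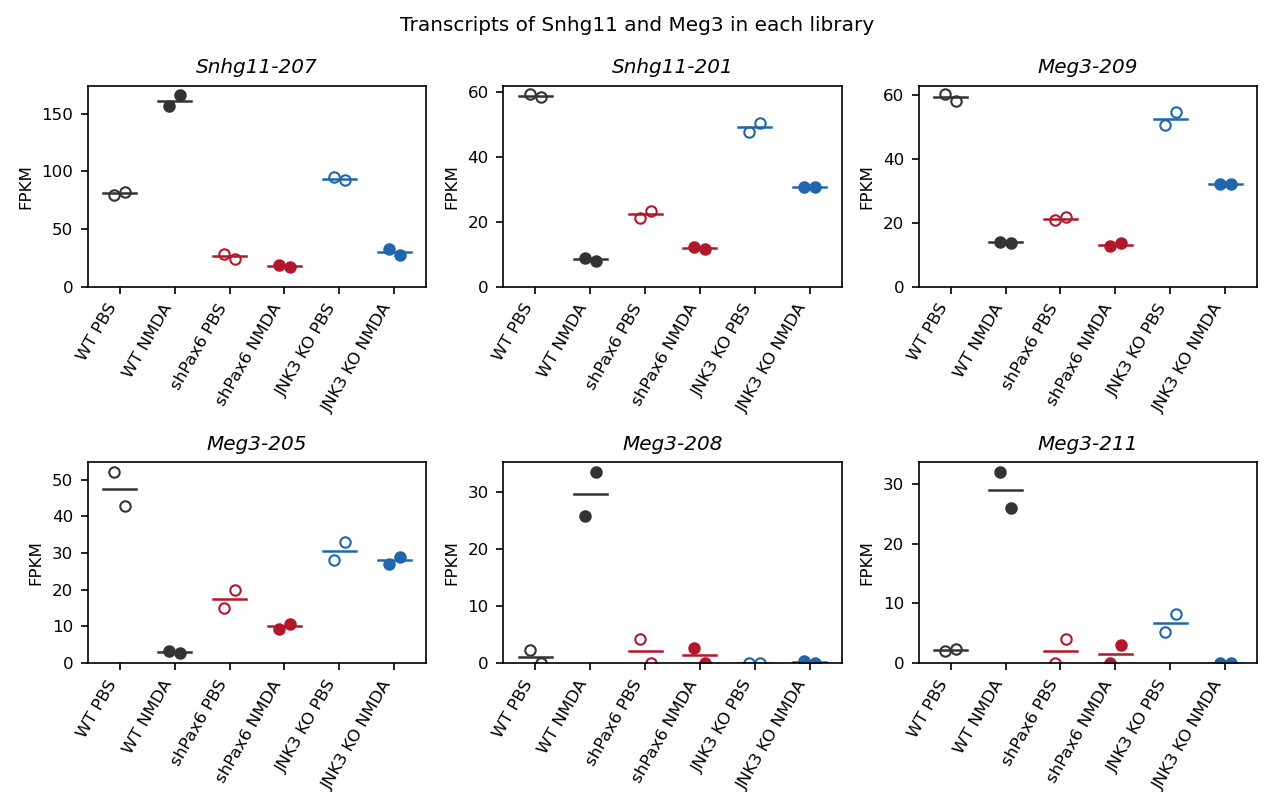
FPKM (vertical axes, linear from 0) of 2 transcripts of Snhg11 and 4 of Meg3 by group, with 1 point a library (open for PBS, filled for NMDA) and a bar at the mean of 2. In WT NMDA Snhg11-207 stands at 156.15 and 166.42 FPKM, its highest, while Snhg11-201 and Meg3-205 are at their lowest there with 8.84 and 7.82 and with 3.36 and 2.75 FPKM.

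In WT retinas 5 of 11 Meg3 transcripts tested were lower after NMDA and 0 higher. Meg3-209, of 14548 bases, fell from 60.41 and 58.09 to 14.11 and 13.52 FPKM in these retinas, or by −2.09 in log2 (limma adjusted p = 1.03e-06), which was 0.14 after the length correction. Meg3-205, of 1498 bases, fell from 52.23 and 42.97 to 3.36 and 2.75 FPKM, by 3.92 on the log2 scale (limma adjusted p = 2.72e-06). The short Meg3-208 (706 bases) was at 2.29 and 0 FPKM under PBS and at 25.72 and 33.51 FPKM under NMDA, and Meg3-211 (797 bases) at 2.09 and 2.32 and at 32.01 and 25.97 FPKM. Neither passed (limma adjusted p = 0.0805 and 0.173).

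Gas5 is spliced from up to 12 exons, with 10 snoRNAs inside the gene. Gas5-224, of 502 bases and 12 exons, rose in WT retinas from 115.15 and 126.2 to 419.18 and 419.86 FPKM, with a log2 fold change of 1.80 (limma adjusted p = 0.000101). Gas5-210, of 557 bases and 11 exons, rose from 92.12 and 98.84 to 240.06 and 239.26 FPKM, with a value of 1.33 (limma adjusted p = 0.000354) that was 0.41 after quantile normalization (0.116). Of 23 Gas5 transcripts tested 3 were higher and 1 lower.

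Neat1-202, the short isoform of 3004 bases, carried at least 89.9% of the Neat1 transcript FPKM in every library. It rose in shPax6 retinas from 6.8 and 6.79 to 40.29 and 43.2 FPKM, by 2.60 on the log2 scale (limma adjusted p = 8.93e-06). In WT retinas it went from 15.52 and 17.34 to 23.47 and 23.1 FPKM (0.50, limma adjusted p = 0.00413), which was −0.07 on TPM. The long Neat1-201 of 20771 bases, the one that builds paraspeckles, was between 0.14 and 0.92 FPKM in the 12 libraries and was not tested, with 0.15 and 0.2 FPKM in shPax6 PBS and 0.91 and 0.92 FPKM in shPax6 NMDA.

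In WT retinas the full-length transcripts of Malat1 and Miat fell as well. Malat1-201, of 6983 bases, went from 145.04 and 120.94 to 37.63 and 30.76 FPKM (−1.96, limma adjusted p = 0.000779). Miat-201, of 8758 bases, went from 6.79 and 6.06 to 1.48 and 1.43 FPKM (−2.07, limma adjusted p = 0.000941). After the length correction these became −0.28 (0.498) and −0.21 (0.663) and did not pass. In shPax6 retinas Miat-201 had a value of −1.39 (limma adjusted p = 0.0253), which was lost without replicate 1 of shPax6 PBS (0.0588), and there the Miat gene did not pass. Of 22 Rian transcripts tested 11 were lower and 0 higher, among them Rian-242 at 24.04 and 26.01 FPKM before and 2.31 and 6.57 FPKM after (−2.65, limma adjusted p = 0.00143). Strand was not stated for the libraries, so reads of Gas5, Miat, Meg3 and Malat1 cannot be told apart from those of genes annotated on the opposite strand at the same place (Zbtb37, Gm26953, Gm26906 and Gm37376).

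Lists of related genes, written with earlier results of these data known, set the 8 in context. Of 18 other snoRNA host genes, 17 were found and tested in 18 entries, since Snhg4 is listed as 2 genes. In WT retinas 15 entries were higher and 1 lower after NMDA, beside 26.0% and 33.8% of all genes. Their median log2 fold change was 1.61 against −0.09 over all genes. Genes of 300 to 1000 bases, whatever their kind, had a median of 1.13 there. Snhg12 went from 57.43 and 65.46 to 204.89 and 202.51 FPKM (1.73), and Snhg20, Snhg6 and Snhg8 had log2 fold changes of 1.76, 1.76 and 1.56, close to the 1.53 of Gas5. The 1 that fell was Snhg14 (−2.35), and the 2 entries of Snhg4 did not pass, at −3.33 and 0.60; these names were picked after their values were seen. In shPax6 retinas 5 entries were higher and 1 lower with a median of 0.26, beside 19.1% and 11.0% of all genes. In JNK3 KO retinas 2 were higher and 0 lower with a median of −0.07, beside 4.33% and 6.10%. These JNK3 KO calls were lost when any JNK3 KO library was left out. Snhg11, a host as well, fell in all 3. The values of each host are plotted.

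**Figure D5:**
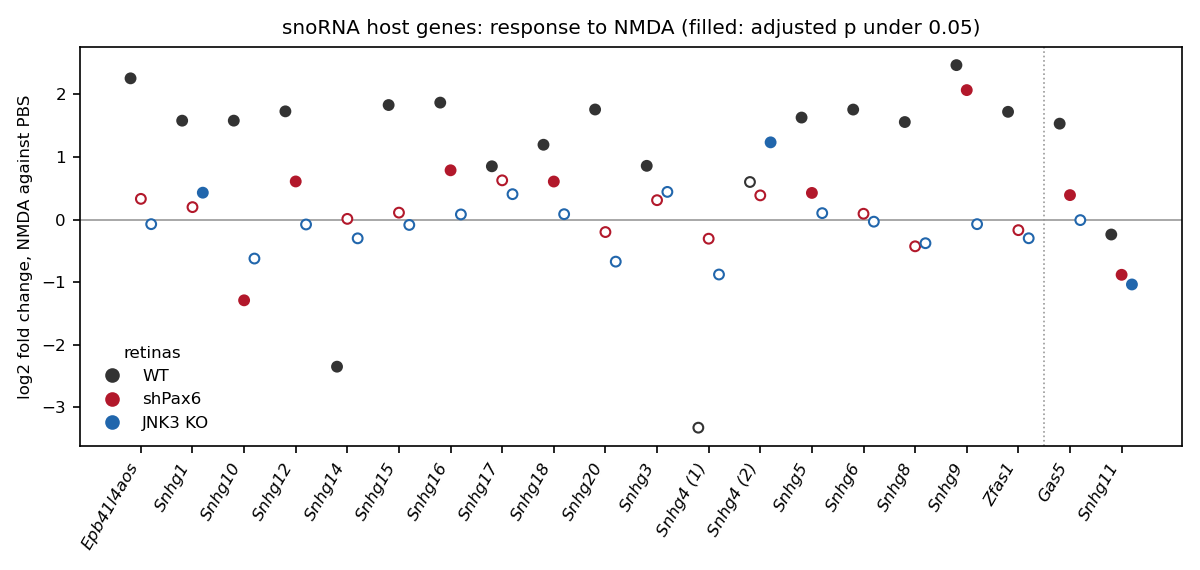
The log2 fold change after NMDA (vertical axis) of the 18 entries of other snoRNA host genes and, to the right of the dotted line, Gas5 and Snhg11, in WT, shPax6 and JNK3 KO retinas, with filled points for an adjusted p under 0.05. In WT retinas 15 of the 18 entries are filled above 0 and lie mostly near the 1.53 of Gas5, and in the other genotypes most lie near 0.

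Proteins that work with these RNAs were listed as well. Of 14 paraspeckle proteins 3 were higher and 5 lower in WT retinas after NMDA (median −0.08), beside 26.0% and 33.8% of all genes. The counts were 4 and 1 in shPax6, where Neat1 rose most, and 2 and 0 in JNK3 KO retinas, beside 19.1% and 11.0% and beside 4.33% and 6.10% of all genes, and leaving out a library took them to as few as 2 called in shPax6 and 0 in JNK3 KO retinas. Matr3 and Hnrnpk, both RNA-binding proteins, fell by 1.54 and 0.69 in WT retinas and Ewsr1 rose by 0.78, the latter turning to −0.03 under quantile normalization. Among the 4 nuclear speckle and splicing factors with the highest mean level, Srsf5 fell by 0.79 in WT retinas. Srsf2 went up there, from 133.53 and 127.8 to 163.87 and 187.13 FPKM. Srrm2 went from 190.8 and 187.25 to 223.81 and 195.01 FPKM, and the Srsf1 libraries overlapped. Beside 26.0% and 33.8% of all genes, 2 of the 18 listed factors were higher and 12 lower in WT retinas (median −0.65), where Malat1 fell. In shPax6 retinas 8 of them were higher and 1 lower (median 0.17), or 5 in all without replicate 1 of shPax6 PBS, and in JNK3 KO retinas 0 passed by limma, with 2 at an unadjusted p under 0.05.

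Of 10 proteins known to act with Bc1, 2 were higher and 8 lower in WT retinas, with a median of −0.56, beside the same 26.0% and 33.8% of all genes. The 2 that rose were Eif4a1, the helicase that unwinds mRNA for initiation (1.26), and Pabpc1, the poly(A)-binding protein (1.17). In shPax6 retinas 4 were higher and 1 lower, beside 19.1% and 11.0% of all genes, and in JNK3 KO retinas 4 and 0, beside 4.33% and 6.10%. Of 14 nonsense-mediated decay factors, the machinery that degrades spliced Gas5, 5 were higher and 3 lower in WT retinas (median −0.12), again beside 26.0% and 33.8%. Eif4a3, Rbm8a and Magoh, parts of the exon junction complex, rose by 1.75, 1.79 and 0.97, and Magoh turned to −0.21 after the length correction. Upf3b, named by the same rule, went the other way in WT retinas, from 41.64 and 38.94 to 35.18 and 28.85 FPKM. In shPax6 retinas 1 of the 14 was higher, with 2 called without replicate 2 of shPax6 PBS or replicate 1 of shPax6 NMDA, and in JNK3 KO retinas 0 passed by limma or at an unadjusted p under 0.05.

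Of 6 other listed genes of the imprinted locus that holds Meg3 and Rian, 4 were tested. Of these, 1 was higher and 1 lower in WT, beside 26.0% and 33.8% of all genes. The counts were 2 and 0 in shPax6 retinas, beside 19.1% and 11.0%, and 0 and 1 in JNK3 KO retinas, beside 4.33% and 6.10%. Without replicate 1 of WT PBS or either WT NMDA library, 1 of the 4 was called in WT. Dio3 and Dlk1, expressed from the paternal copy, rose in shPax6 retinas by 3.24 and 3.08, though at levels of no more than 2.37 FPKM. With a library left out Dio3 ran from 2.33 to 4.14, and Dlk1 did not pass without replicate 2 of shPax6 PBS or of shPax6 NMDA (limma adjusted p = 0.0682 and 0.0594). Begain, of the same region, fell by 0.71 in WT (limma adjusted p = 0.000724) and by 0.98 in JNK3 KO retinas. Among 24 of 29 other long noncoding RNAs of neurons and retina that were tested, 3 were higher and 10 lower in WT retinas with a median of −0.17. Vax2os, antisense to a retinal homeobox gene, went from 88.11 and 86.52 to 278.55 and 290.5 FPKM (1.70), and Peg13, an imprinted RNA of the brain, had a value of −1.06 that was −0.06 after the length correction (0.420). Over all 1241 long noncoding genes tested the median in WT retinas was 0.21, with 18.5% higher and 16.0% lower, against −0.15 over 13890 protein-coding genes with 27.8% and 37.2%.

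Other short noncoding RNAs offered no steady comparison for Bc1. Of 12 listed, 9 were tested in 10 entries, and in WT and shPax6 retinas 0 passed by limma, with 1 and 0 at an unadjusted p under 0.05. Over all genes, 26.0% were called higher and 33.8% lower in WT, and 19.1% and 11.0% in shPax6 retinas. In JNK3 KO retinas 1 entry was higher and 0 lower, beside 4.33% and 6.10% of all genes. With a library left out the called entries numbered 0 or 1 in WT and shPax6 and 1 or 2 in JNK3 KO retinas. Most of them were detected unevenly: Rny1 was at 0 in 7 of 12 libraries and at up to 1200.65 FPKM in another, Rny3 was at 0 in 11 and Rn7s1 in 2. Bc1 was at 235.82 FPKM or more in all 12.

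The genes whose levels resembled each of the 8 most closely were found by Pearson's r of log2(FPKM + 0.1) over the 12 libraries, among 8016 genes with a mean above 10 FPKM. Gas5 was closest to Rpl23a (0.997), Mrpl21 (0.995) and Rps6 (0.994), which encode ribosomal proteins. Snhg11 was closest to Snrpn (0.993), Csdc2 (0.992) and Gap43 (0.991), the last a protein of growing axons, and Meg3 to Kifc2 (0.984), Cplx1 (0.980) and Pde1b (0.970), of which Cplx1 acts in synaptic vesicle release. Meg3 and Snhg11 had an r of 0.938 with each other. Neat1 was closest to Bmp1 (0.980), Arl6ip1 (0.970) and Spp1 (0.967), a secreted protein that activated microglia make.

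Malat1 was most like Nav1 (0.988), Brox (0.985) and Nek9 (0.976), and Rian like Reep1 (0.982), Disp2 (0.980) and B3galnt1 (0.976). For Miat the closest were Ppme1 (0.959), Rab6b (0.945) and L1cam (0.939), an adhesion molecule of axons. Bc1 was closest to Bex2 (0.970), Dbp (0.968), a clock output factor, and Them6 (0.963). These correlations share the libraries, their normalization and the length trend of WT NMDA libraries, and they are given as a description.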

How the data were processed

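Poly(A) RNA of mouse retina was measured in 12 libraries of 6 groups, with 101-base paired reads. The authors aligned reads to GRCm38.p6 and estimated abundance, with STAR 2.7.1a and RSEM 1.3.3 named in the submitters' processing notes along with edgeR 3.36.0 and R 4.1.0, and the values they deposited are FPKM, for genes and for transcripts. FPKM hold no counts, so the depth behind a value is unknown, and precision was judged from the 2 libraries of a group.

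Values were put on log2(FPKM + 0.1), on which changes of low genes are understated. Any of the 6 groups had to average above 1 FPKM, which kept 16471 genes and 49940 transcripts. One mean per group was fitted by limma 3.58.1 (lmFit, eBayes with intensity trend), leaving 6 residual degrees of freedom. R 4.3.3 and the data.table package 1.17.8 were used. A two-sided p was adjusted over all features by Benjamini-Hochberg, with calls under 0.05. The fit was tested on simulated data. Alternatives were pseudocounts of 0.01 and 1, no filter, TPM (FPKM rescaled to a common sum), scaling without the 8 genes and mitochondrial genes, quantile normalization, correction for length (lowess span 0.3), groups compared alone, no intensity trend, a replicate block, a fold threshold and each library left out, where a lone library is taken to vary like the other groups. The members and lists were chosen with earlier results of these data known. Named in addition were transcripts with at least 10% of a gene's FPKM in a group, up to 4 genes a list by mean level, and the 3 genes most like each member.

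Replicate numbers were checked as pairs: over 15 pairs of groups the deviations of same-numbered libraries correlated between −0.0973 and 0.0858, and the numbers were not used as pairs. Lengths and coordinates came from GENCODE M21, which matched 55227 of 55487 genes (99.53%), but 77 of 128 member transcripts (60.16%). Sequence stretches were matched with blastn 2.17.0. Figures were drawn in Python 3.11.15 with pandas 2.3.3 and matplotlib 3.10.9.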

Additional observations from a re-analysis of the deposited data

Results flagged for a closer look

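The response to NMDA differed between genotypes by a test of the difference itself (limma, adjusted over all genes) for 13 gene and genotype pairs, which is why they are listed. Of all genes, 18.3% were called higher and 31.4% lower for WT minus shPax6, and 23.5% and 27.9% for WT minus JNK3 KO. Against shPax6 retinas the WT response was higher by 3.46 for Bc1, 1.14 for Gas5 and 0.64 for Snhg11 on the log2 scale, and the difference was −0.47 for Meg3, −2.08 for Neat1, −2.77 for Malat1, −0.92 for Rian and −2.33 for Miat. Against JNK3 KO retinas it was higher by 3.87 for Bc1, 1.54 for Gas5 and 0.80 for Snhg11, and the difference was −2.84 for Malat1 and −1.24 for Rian. Bc1 rose in both WT libraries and fell in the mean of both other genotypes, with the groups of each genotype not overlapping. All these differences rest on the 2 WT NMDA libraries, whose FPKM sum and length trend stand apart.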

How the results depend on the processing

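Of the 8 genes, those called after NMDA numbered 8 in WT, 7 in shPax6 and 5 in JNK3 KO retinas. After the length correction, possible for 6 of the 8, they were 5 in WT and 4 in shPax6. With an absolute log2 fold change above 1 also required, they were 5, 2 and 3. With groups compared alone, shPax6 gave 3. Leaving out a library gave 8 in WT, 5 to 7 in shPax6 and 2 to 3 in JNK3 KO retinas. For shPax6 against WT under PBS the count was 5, with groups compared alone 3, after the length correction 3 and with a library left out 3 to 5. For JNK3 KO against WT it was 0, and 1 under quantile normalization. For the response of WT minus shPax6 it was 8, after the length correction 4 and with the fold threshold 5. Meg3 is among those 4, but with its sign turned. For WT minus JNK3 KO it was 5, and 8 on TPM.

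Transcripts of these genes called after NMDA numbered 30 in WT, 13 in shPax6 and 8 in JNK3 KO retinas. The length correction gave 18, 6 and 5. Without the intensity trend there were 8 in shPax6 and 3 in JNK3 KO, with the fold threshold 8 and 5, and with groups compared alone 0 in both. Leaving out a library gave 21 to 26, 8 to 17 and 1 to 3. Under PBS shPax6 against WT gave 11, alone 0 and with a library left out 6 to 13. For JNK3 KO against WT it was 0, and 1 with the pseudocount of 0.01, no filter, TPM or no intensity trend. The replicate block gave 5 JNK3 KO transcripts. With it the genes called were 8 in WT, 6 in shPax6 and 5 in JNK3 KO retinas.

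Counts of called genes in the lists moved by over 1.5 times in 139 of the recomputed values and by less in 765. In WT retinas paraspeckle proteins and decay factors, 8 called in each, were 13 on TPM. With groups compared alone in shPax6 retinas the 9 called speckle factors and the 6 snoRNA host entries became 0, and in WT retinas the short noncoding RNAs went from 0 to 4.

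These values turned sign. Neat1 in WT became −0.10 on TPM and −0.18 when scaled without the 8 genes and mitochondrial genes, Neat1-202 became −0.069 and −0.063, Neat1 in the WT minus JNK3 KO difference −0.55 and −0.68, and Neat1 in JNK3 KO against WT −0.0094 with the scaling. Under the length correction Meg3 became 0.15 in WT, 0.50 in WT minus shPax6 and 0.97 in WT minus JNK3 KO, Meg3-209 0.14, Miat 0.50 in WT minus JNK3 KO, and Magoh −0.21. The turned Meg3 values of 0.50 and 0.97 passed (limma adjusted p = 0.00521 and 0.000164). Quantile normalization turned Snhg11 in WT minus JNK3 KO to −0.038 and Ewsr1 to −0.029. Gas5 in JNK3 KO retinas, near 0, became 0.012, 0.057, 0.13 and 0.15 on TPM, scaled, quantile and length. The cause was not tested. With a library left out, that Gas5 value ran from −0.055 to 0.039, Neat1 in WT minus JNK3 KO from −0.021 to 0.095, and Miat in shPax6 from −0.92 to 0.32. FPKM without counts limit the precision of low values such as those of Miat and Neat1-201.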
